A study of Oryza sativa with 4 samples.

Results

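The terminal oxidases that let plant electron transport bypass its usual end points were followed in rice leaves after treatment with a nitric oxide donor. The group holds 4 of the 57995 loci in the deposited files, chosen by locus identifier: AOX1a (LOC_Os04g51150), AOX1b (LOC_Os04g51160) and AOX1c (LOC_Os02g47200), for mitochondrial alternative oxidases, and the locus taken as the plastid terminal oxidase gene, here called PTOX (LOC_Os04g57320). Oryza sativa seedlings of the genotype Dongjin, 7 days old and kept at 23 °C with 16 h of light and 8 h of dark, were irrigated with 5 mM CysNO (S-nitrosocysteine, a thiol carrying nitric oxide on its sulfur) or with buffer alone (1 mM HCl). Leaf poly(A) RNA gave 2 CysNO and 2 control libraries. No library received cysteine without nitric oxide, so an effect of nitric oxide and one of the rest of the molecule cannot be told apart. RNA came from triplicate leaf samples per the labels' protocols, but whether the pair of libraries in each group stems from different plants is not stated, and the p-values speak only of the spread among these 4 libraries, which could be technical.

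Alternative oxidase sits in the inner mitochondrial membrane, takes electrons from ubiquinol and hands them directly to oxygen. It thereby skips the cytochrome pathway, whose last enzyme, cytochrome c oxidase, is blocked by nitric oxide, while alternative oxidase is far less sensitive. Genes of the AOX1 type are known in plants for rising when the cytochrome pathway is inhibited and under many stresses. The plastid terminal oxidase is a distant relative in chloroplast membranes that takes electrons from plastoquinol, and in Arabidopsis it is needed for carotenoid desaturation (the IMMUTANS gene). Which leaf transcripts respond to the donor was the question of the study, and the bypass oxidases bear on it because cytochrome c oxidase is a known target of nitric oxide. Transcript levels were measured, not protein or respiration.

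The values are FPKM, which correct the fragments of a gene for its length and for the fragments mapped in that library, so levels of different genes may be set side by side. Libraries summed to between 687469 and 732401 FPKM, their read counts are unknown, and their relative depth, from 642 loci of low expression with control 1 set to 1, was 0.825 and 1.08 in CysNO 1 and 2 and 1.07 in control 2. Nuclear leaf markers were high in every library, with 5 loci listed as light-harvesting or RuBisCO small subunit genes summing to 2494 and 3810.4 FPKM in CysNO and 4943 and 3809.7 FPKM in control. CysNO 2 stood apart in root markers, since 3 such loci summed to 123 FPKM there against 9.90 in CysNO 1 and 11.8 and 11.6 in the controls. Most of it was LOC_Os02g44310, with 4.47 and 96.4 FPKM in CysNO and 1.64 and 4.39 in control. The root silicon transporter gene Lsi1 had 5.41 and 22.3 FPKM in CysNO and 10.2 and 7.13 in control, and Lsi2 had 0.0258 and 4.46 in CysNO, against a listed 0 and 0.118 in control. In RNA from whole leaves, fewer cells of a type and less RNA per cell cannot be told apart.

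AOX1a and AOX1b rose after CysNO, while AOX1c and PTOX did not pass the test. All 4 members were tested, each with at least 1 FPKM in all 4 libraries, and 2 of the 4 rose and 0 fell at an adjusted p under 0.05 (limma's moderated test on log2(FPKM + 1), Benjamini-Hochberg over 21123 loci). Over all tested loci 3.27% rose and 0.956% fell, or 4.23% in either direction. The same 2 members, and 0 in the lower direction, had an unadjusted p under 0.05, where 9.66% of the tested loci were higher, 8.39% lower and 18.1% either. The CysNO and control values did not overlap in 3 members, all higher in CysNO. Among the tested loci the groups did not overlap in 21.5% with CysNO higher and in 24.9% with CysNO lower, 46.4% in all. The members' median log2 fold change was 1.17, beside -0.01 for all tested loci.

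**Figure D1:**
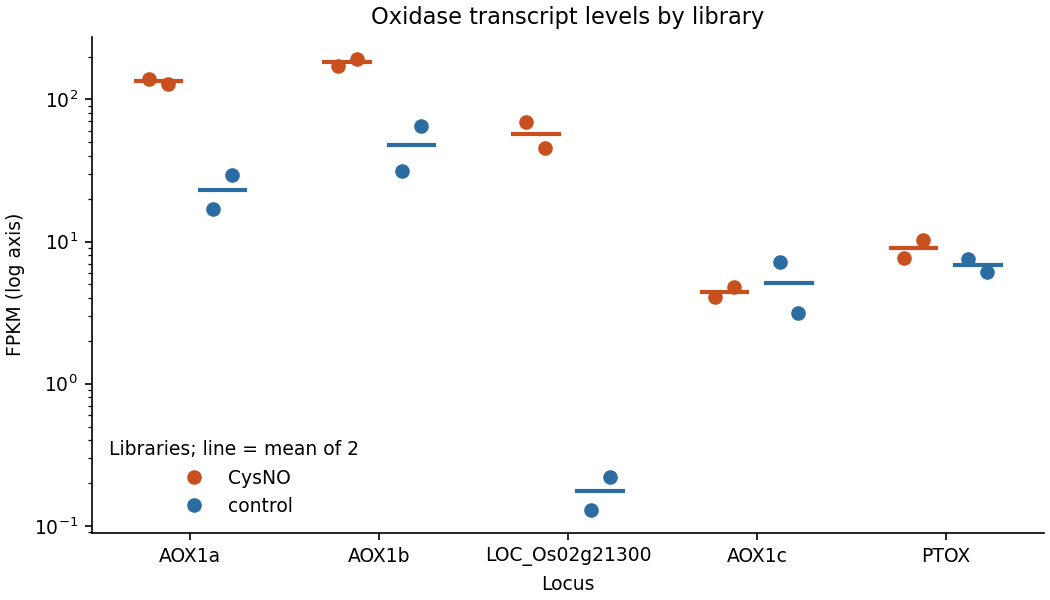
FPKM on a log axis for the 4 members and the listed locus LOC_Os02g21300, with 1 point per library and a line at the mean of 2, CysNO left of control. AOX1a, AOX1b and LOC_Os02g21300 lie clear of their controls, AOX1c overlaps, and for PTOX the lower CysNO library (7.68 FPKM) sits next to the higher control (7.59 FPKM).

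AOX1a lies on the minus strand of chromosome 4, bases 30102025 to 30104736 in the coordinates of the files, whose build was not given in the sources used here. It had 139.6 and 129.0 FPKM in CysNO 1 and 2, against 16.9 and 29.2 FPKM in control 1 and 2. Both CysNO libraries were thus well above both controls, and the controls were further from each other, in proportion, than the CysNO libraries were. The means were 134 ± 7.48 FPKM in CysNO and 23.1 ± 8.75 FPKM in control (SD, n = 2 each), a 5.82-fold ratio of means. On the log2(FPKM + 1) scale, on which low loci show too small a change, the log2 fold change was 2.54 with a standard error of 0.32 (95% interval 1.80 to 3.28; limma, adjusted p = 0.00888). Only 0.956% of the tested loci had a larger log2 fold change than AOX1a. By level, AOX1a held ranks 930 and 905 among all loci in the CysNO libraries, against ranks 7036 and 3990 in control 1 and 2. The call was lost without CysNO 1 (log2 fold change 2.48) and without CysNO 2 (2.60), where the spread of the lone CysNO library is assumed to be like that of the controls. Almost no tested locus passed in these fits, so this loss is not particular to AOX1a. The call was kept without control 1 (2.16) and without control 2 (2.92).

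AOX1b is the next listed locus, on the same strand, bases 30106333 to 30107912, with 1596 bp between the spans. It had 172 and 191 FPKM in CysNO 1 and 2, against 31.3 and 64.6 FPKM in control 1 and 2. The CysNO libraries were again above both controls, and control 2 was 2.06 times control 1. Means were 182 ± 13.2 FPKM in CysNO and 47.98 ± 23.6 FPKM in control (SD, n = 2 each), a 3.79-fold ratio of means. The log2 fold change was 1.99 ± 0.37 (SE; 95% interval 1.12 to 2.85; limma, adjusted p = 0.0314). This call was lost in limma with median centring (log2 fold change 1.99, adjusted p = 0.0951) and with quantile normalization (1.86, adjusted p = 0.0984). The call was also lost without control 1 (1.48). It was lost without CysNO 1 (2.06) and without CysNO 2 (1.91) too, where almost no tested locus passed. CysNO 2, where the root markers were higher, had 0.924 times the AOX1a and 1.11 times the AOX1b level of CysNO 1, and the part of root markers in these values was not tested.

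AOX1c, on the minus strand of chromosome 2 at bases 28806522 to 28808209, was a low transcript in every library. It had 4.04 and 4.79 FPKM in CysNO and 7.13 and 3.13 FPKM in control, so the CysNO values lay between the controls. The log2 fold change was -0.10 ± 0.38 (SE, with adjusted p = 0.942 in limma). Its 95% interval ran from -1.0 to 0.80, so a change within these limits in either direction was not excluded by these libraries. The sign of the log2 fold change turned without control 1, to 0.39. PTOX, on the minus strand of chromosome 4 at bases 33937718 to 33940830, had 7.68 and 10.3 FPKM in CysNO and 7.59 and 6.09 FPKM in control. Both CysNO libraries were above both controls, but CysNO 1 lay next to control 1. Its log2 fold change was 0.34 ± 0.30 (SE; 95% interval -0.35 to 1.04; limma, adjusted p = 0.648). The span of PTOX overlaps that of LOC_Os04g57310, on the opposite strand, by 779 bp, and whether the authors' counting used strand was not given in the sources used here. LOC_Os04g57310 had 1.55 and 2.98 FPKM in CysNO and 3.44 and 2.64 FPKM in control.

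**Figure D2:**
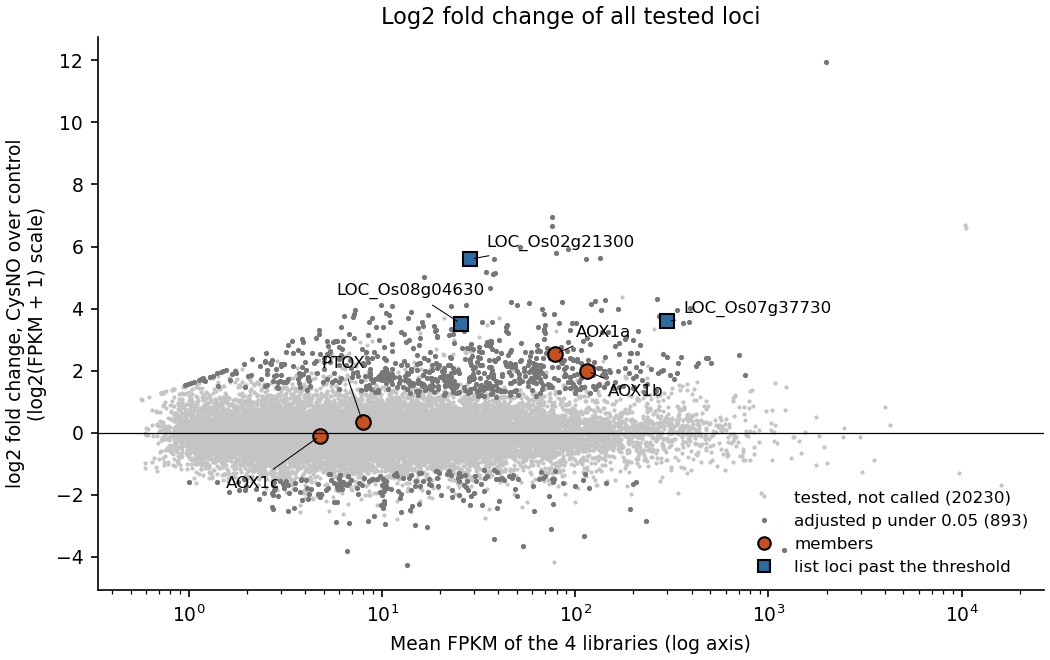
Log2 fold change, CysNO over control, against the mean FPKM of the 4 libraries (log axis) for the 21123 tested loci, with the 4 members as circles and the 3 listed loci that rose as squares. AOX1a (2.54) and AOX1b (1.99) lie among the loci that passed, AOX1c (-0.10) and PTOX (0.34) within the body of loci that did not.

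The order of the members by level was AOX1b, AOX1a, PTOX, AOX1c in each of the 4 libraries. AOX1b was 1.24 and 1.48 times as high as AOX1a in the CysNO libraries, against 1.86 and 2.21 times in control, so the neighbours lay closer together after CysNO. The difference of their log2 values, AOX1a minus AOX1b, averaged -0.43 ± 0.18 in CysNO and -0.99 ± 0.19 in control (SD, n = 2 each). An exact two-sided permutation test over libraries gave p = 0.333 for this, the smallest p that 2 against 2 libraries allow, so it could not be told whether the responses of AOX1a and AOX1b differed. PTOX was 1.90 and 2.15 times AOX1c in CysNO and 1.07 and 1.95 times in control, and in control these neighbours in the order did not differ beyond their spread (6.84 ± 1.06 FPKM for PTOX and 5.13 ± 2.83 FPKM for AOX1c, SD, n = 2 each). The 3 AOX members together had 316 and 325 FPKM in CysNO and 55.3 and 97.02 FPKM in control. How the authors' counting divided reads between similar loci such as AOX1a and AOX1b was not given in the sources used here.

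**Figure D3:**
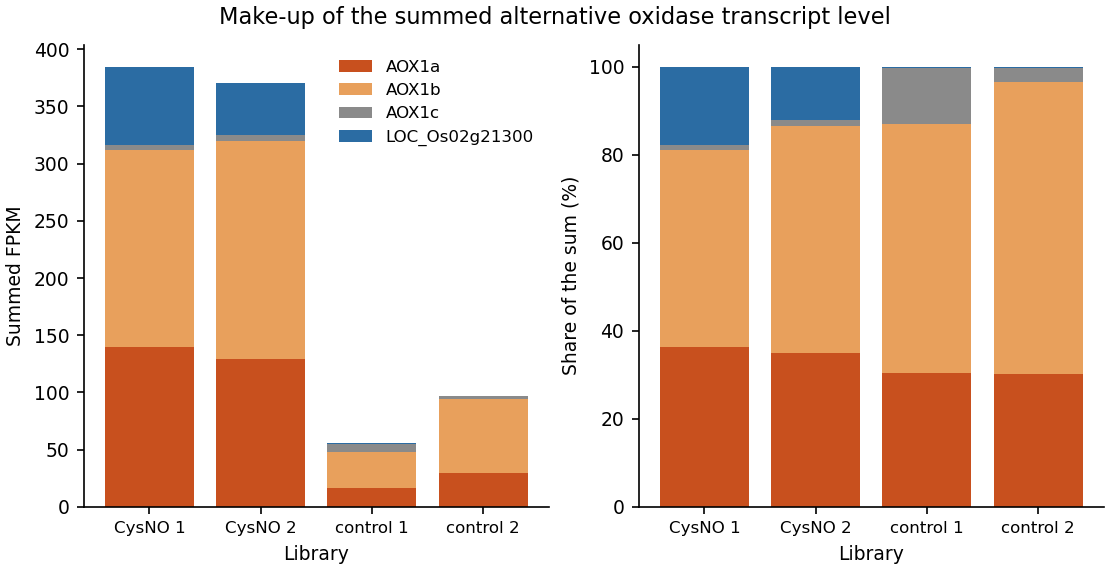
Summed FPKM of AOX1a, AOX1b, AOX1c and the listed locus LOC_Os02g21300 (left) and their shares in percent (right), 1 bar per library, CysNO left of control. The sum was 385 and 370.1 FPKM in CysNO and 55.4 and 97.2 in control, and LOC_Os02g21300 made up 17.9% and 12.2% of it in CysNO, against 0.232% and 0.228% in control.

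A list of 20 further loci of the same chains had been drawn up from general knowledge, with earlier results of these data known. Counts of calls in it are therefore a description. Of the 20 loci 3 rose and 0 fell, where 3.27% of all tested loci rose and 0.956% fell. The other 17 did not pass, and the median log2 fold change of the list was 0.15, beside -0.01 for all tested loci. At an unadjusted p under 0.05 in limma's test, 4 of the 20 were higher and 1 was lower, where 18.1% of all tested loci passed in either direction. Most of these loci have no annotation in the files or in the gene table from which names were taken. Those are therefore given by locus identifier, as candidates of the list they stood on, and what they encode was not checked. LOC_Os02g21300 (chromosome 2, bases 12645456 to 12648010, plus strand) had been listed as a candidate for a further alternative oxidase. It had 68.7 and 45.2 FPKM in CysNO, against 0.129 and 0.221 FPKM in control. The locus was thus low in both controls, at ranks 25254 and 23874 among all loci, against ranks 1952 and 2789 in the CysNO libraries. It passed the filter on low values only through the CysNO libraries, so its call had to be a higher one. Its log2 fold change was 5.59 ± 0.31 (SE; limma, adjusted p = 0.00106), and 7.69 with a pseudocount of 0.1. With this locus included, AOX1a made up 36.3% and 34.9% of the summed level in CysNO and 30.4% and 30.1% in control (exact two-sided permutation p = 0.333, the smallest possible). AOX1b made up 44.8% and 51.6% in CysNO and 56.5% and 66.5% in control. LOC_Os02g21300 itself made up 17.9% and 12.2% of that sum in CysNO, against 0.232% and 0.228% in control. Its larger part in CysNO lowers the other shares there, and shares without this locus were not taken.

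Alternative NAD(P)H dehydrogenases are single-protein enzymes that feed electrons into ubiquinone without pumping protons, and together with alternative oxidase can form a chain that bypasses the pumping complexes. Of 6 candidate loci listed for them, 2 rose, 0 fell and 4 did not pass (median log2 fold change 0.13). Over all tested loci 3.27% rose and 0.956% fell. LOC_Os07g37730 had 532 and 562 FPKM in CysNO and 26.6 and 73.7 FPKM in control, and its log2 fold change was 3.59 ± 0.46 (SE; adjusted p = 0.00981 in limma). It ranked 147 and 106 among all loci in the CysNO libraries. LOC_Os08g04630 had 51.1 and 44.5 FPKM in CysNO and 2.45 and 4.26 FPKM in control, and its log2 fold change was 3.51 ± 0.30 (SE; adjusted p = 0.00256 in limma). Both loci, like AOX1a and AOX1b, were higher in control 2 than in control 1, by 2.77 and 1.74 times, against 1.73 and 2.06 times for AOX1a and AOX1b. The other 4 candidates stayed between 1.00 and 10.5 FPKM in every library, with log2 fold changes from -0.22 to 0.19 (limma, adjusted p from 0.809 to 0.979).

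The 3 listed loci that rose also passed with median centring and with quantile normalization. All 3 calls were lost without CysNO 1, where the log2 fold changes were 5.30 for LOC_Os02g21300, 3.63 for LOC_Os07g37730 and 3.42 for LOC_Os08g04630. They were lost likewise without CysNO 2, at 5.89, 3.55 and 3.61. Almost no tested locus passed in these fits, so the losses are not particular to the 3 loci.

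**Figure D4:**
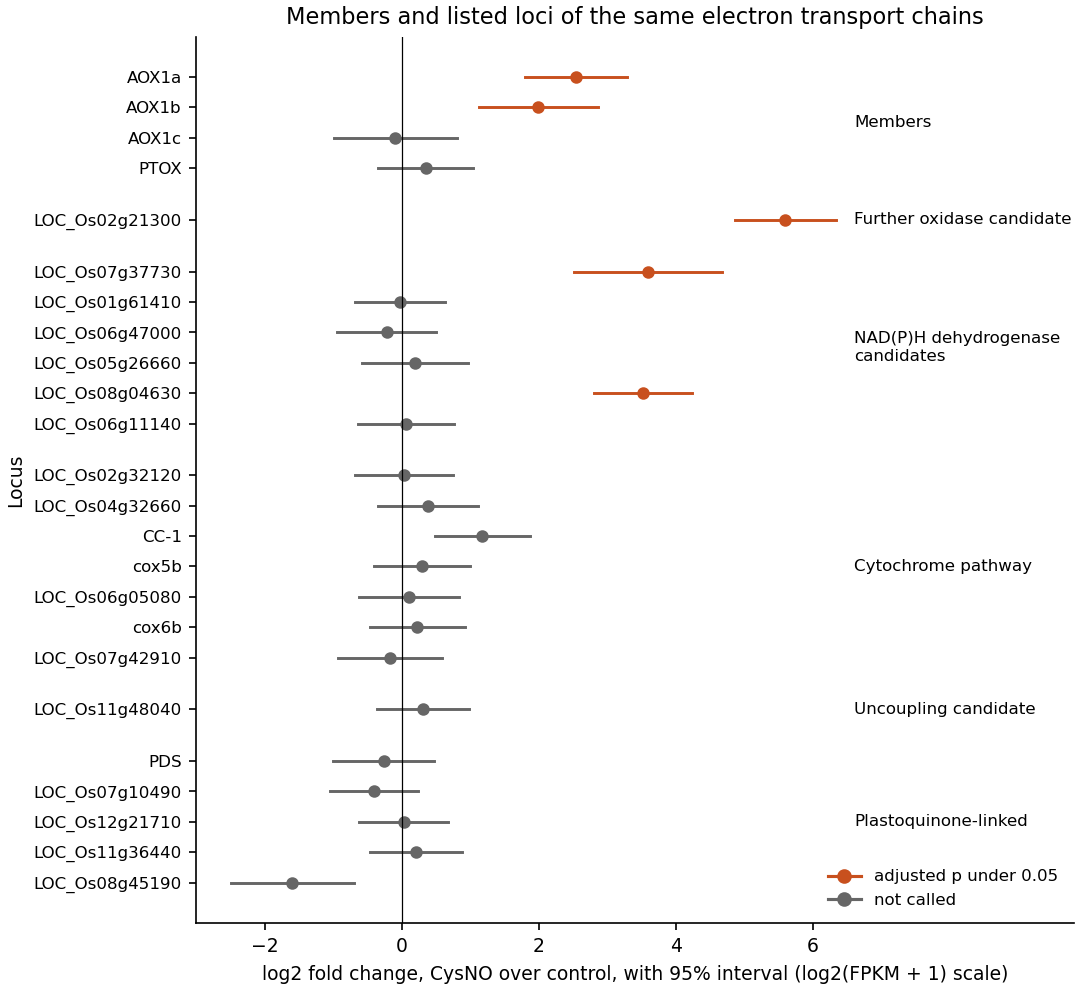
Log2 fold changes, CysNO over control, with 95% intervals from limma for the 4 members and the 20 listed loci, grouped by list, with loci past the adjusted p of 0.05 in orange. AOX1a, AOX1b, LOC_Os02g21300, LOC_Os07g37730 and LOC_Os08g04630 stand to the right, and the cytochrome pathway loci other than CC-1 lie around 0.

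The cytochrome pathway, which alternative oxidase bypasses, was represented by 7 nuclear loci, of which 0 passed and 1 had an unadjusted p under 0.05 (limma; median log2 fold change 0.22). Of all tested loci 4.23% passed and 18.1% had an unadjusted p under 0.05, so these counts do not set the 7 loci apart. The most abundant was the locus matched to CC-1 (LOC_Os05g34770), for cytochrome c, the small carrier that brings electrons to cytochrome c oxidase. It had 305 and 237 FPKM in CysNO and 109 and 129 FPKM in control, with no overlap. The log2 fold change of this locus was 1.17 ± 0.30 (SE; limma, adjusted p = 0.0795), and it was the one with an unadjusted p under 0.05. The other 6 loci overlapped between the groups, with log2 fold changes from -0.17 to 0.38 (limma, adjusted p from 0.627 to 0.978). Among them are cox5b and cox6b, for cytochrome c oxidase subunits, singled out after their values were seen as a scale for the bypass. cox5b had 126 and 83.7 FPKM in CysNO and 80.04 and 87.3 FPKM in control, and cox6b had 150.2 and 106 FPKM in CysNO and 101 and 115 FPKM in control. The summed AOX1a, AOX1b and AOX1c level was 2.52 and 3.88 times that of cox5b in CysNO, against 0.691 and 1.11 times in control. Relative to cox6b it was 2.10 and 3.07 times in CysNO, against 0.549 and 0.842 times in control. Both ratios were higher in each CysNO library than in either control (exact two-sided permutation p = 0.333, the smallest possible). The list held a further candidate for each subunit, LOC_Os06g05080 and LOC_Os07g42910, which the ratios leave out. LOC_Os06g05080 had 56.1 and 35.2 FPKM in CysNO and 36.7 and 46.8 FPKM in control. LOC_Os07g42910 had 3.03 and 2.80 FPKM in CysNO and 4.31 and 2.66 FPKM in control. The sizes of the ratios thus depend on the loci chosen as a scale. Beyond the list, sdhA, for a subunit of succinate dehydrogenase, had 49.2 and 32.9 FPKM in CysNO and 33.2 and 29.3 FPKM in control (limma, adjusted p = 0.620). The gene cox15, which in yeast serves heme synthesis for cytochrome c oxidase, had 9.28 and 5.04 FPKM in CysNO and 7.89 and 5.55 FPKM in control (limma, adjusted p = 0.972). The loci cox2 and cox3 of the mitochondrial genome, for further cytochrome c oxidase subunits, were lower in the mean after CysNO. cox2 had 1.92 and 1.58 FPKM in CysNO and 2.36 and 3.95 FPKM in control, without overlap (log2 fold change -0.57, with adjusted p = 0.445 in limma). cox3 had 4.22 and 5.22 FPKM in CysNO and 5.09 and 9.82 FPKM in control (-0.51, with adjusted p = 0.547 in limma). The RNA was selected by its poly(A) tail, so what part of the mitochondrial cox2 and cox3 transcripts these low values cover is unknown. All these loci beyond the list were named after their values were seen. The single candidate locus listed for an uncoupling protein, LOC_Os11g48040, had 27.9 and 20.3 FPKM in CysNO and 21.6 and 16.9 FPKM in control (limma, adjusted p = 0.690).

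On the plastid side, 5 loci were listed as linked to plastoquinone, of which 0 passed and 1, LOC_Os08g45190, had an unadjusted p under 0.05 (limma; median log2 fold change -0.27). Among all tested loci 4.23% passed and 18.1% had an unadjusted p under 0.05. PDS (LOC_Os03g08570), for phytoene desaturase, a carotenoid enzyme that passes electrons to plastoquinone, had 11.4 and 11.3 FPKM in CysNO and 17.9 and 10.6 FPKM in control (log2 fold change -0.27, and 0.086 without control 1; limma, adjusted p = 0.768). The most abundant, LOC_Os08g45190, had 21.4 and 27.2 FPKM in CysNO and 109.6 and 51.3 FPKM in control, without overlap. Its log2 fold change was -1.60 ± 0.38 (SE, with adjusted p = 0.0686 in limma), and ran from -1.06 without control 1 to -2.14 without control 2. In limma it passed with a filter of 5 FPKM (adjusted p = 0.0494). It did not pass with median centring (adjusted p = 0.114), quantile normalization (adjusted p = 0.104) or no filter (adjusted p = 0.249). The other 4 loci had log2 fold changes from -0.41 to 0.20. Listed loci other than PDS were candidates, carotenoid isomerases among them, and a link of their products to plastoquinone was not checked. The leaf marker loci, of which 0 of 5 passed with or without adjustment, had log2 fold changes from -0.99 to -0.23 (limma, adjusted p from 0.290 to 0.828), and the part of this in the values of LOC_Os08g45190 was not tested.

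Loci next to the members were examined over 5 listed loci on each side, 30 distinct loci without the members themselves. Of the 24 that were tested, 2 rose and 0 fell. The counts were the same at an unadjusted p under 0.05 in limma's test, where 18.1% of all tested loci passed, against 4.23% with adjustment. LOC_Os04g51130, whose span ends 2.54 kb before that of AOX1a on the opposite strand, had 4.71 and 4.61 FPKM in CysNO and 0.867 and 0.680 FPKM in control (log2 fold change 1.68 ± 0.30, SE; limma, adjusted p = 0.0279). With both controls under 1 FPKM it passed the filter on low values only through the CysNO libraries, so its call had to be a higher one. LOC_Os04g51140, which lies between LOC_Os04g51130 and AOX1a, differed by a log2 fold change of 0.04 ± 0.28 (SE; adjusted p = 0.972 in limma). LOC_Os02g47230, 12.6 kb beyond AOX1c, had 56.9 and 67.2 FPKM in CysNO and 7.01 and 7.75 FPKM in control (log2 fold change 2.91 ± 0.26, SE; limma, adjusted p = 0.00286), while AOX1c and the tested loci between them did not pass. Both calls were lost without CysNO 1 (log2 fold changes 1.66 for LOC_Os04g51130 and 3.03 for LOC_Os02g47230) and without CysNO 2 (1.69 and 2.79). Almost no tested locus passed in these fits. Around PTOX, 0 of 8 tested neighbours passed with or without adjustment (limma), with log2 fold changes from -0.37 to 0.72.

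**Figure D5:**
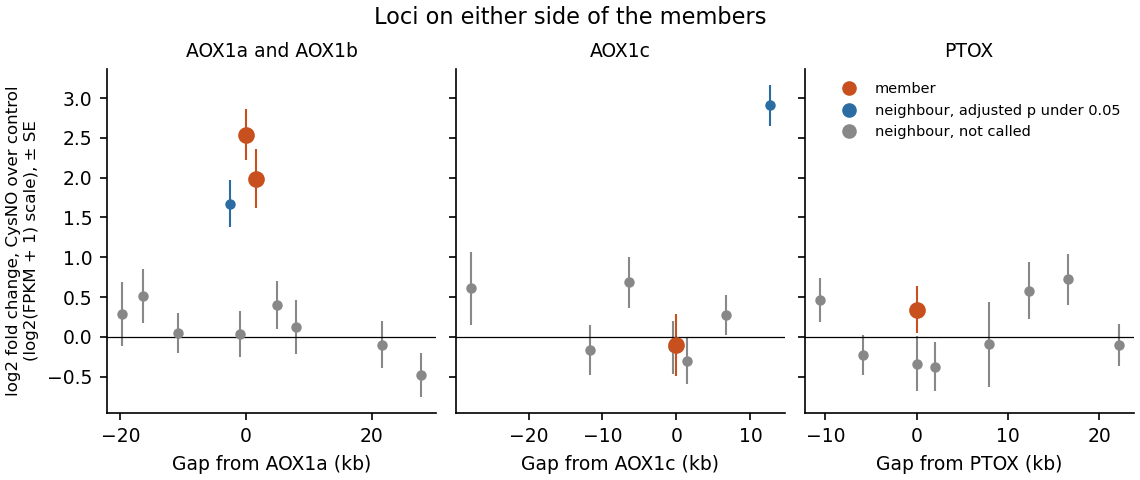
Log2 fold change ± SE, CysNO over control, of the tested loci among the 5 on each side of AOX1a (with AOX1b), AOX1c and PTOX, against the gap in kb from the member's span (0 for an overlapping locus). AOX1a and AOX1b stand together at 2.54 and 1.99, with LOC_Os04g51130 at 1.68 near them and the other neighbours of that pair between -0.48 and 0.52.

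Likeness to each member was measured as the root mean square difference of the log2(FPKM + 1) values over the 4 libraries, each locus centred on its mean, among 390 tested loci that carry a file symbol and a mean of at least 1 FPKM. For AOX1a the nearest were ZB8 (difference 0.13), a phenylalanine ammonia-lyase gene, and rugt-5 (0.22). ZB8 had 314 and 314 FPKM in CysNO and 46.3 and 84.8 FPKM in control. For AOX1b they were GGPR2 (0.16) and the shikimate kinase gene Sk2 (0.16). GGPR2 had 124 and 152 FPKM in CysNO and 18.2 and 41.9 FPKM in control. For AOX1c the nearest were Gi (0.07) and the Aux/IAA gene iaa6 (0.07), and for PTOX the gibberellin receptor gene gid1 (0.08) and SAMS1 (0.09), for an S-adenosylmethionine synthetase. With 4 libraries such likeness is a description.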

How the data were processed

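Leaf RNA selected by oligo(dT) was sequenced as 100 bp read pairs. The authors deposited gene levels in FPKM, per the file headers, for 57995 loci with coordinates, 617 of them with a symbol. Bowtie 0.12.2 and mm8 appear in the submitters' processing notes, and mm8, a mouse build, does not match rice loci. The counting program, rice build and filters were not given in the sources used here. FPKM are not counts, so no count test or counting interval was used. The test was limma (version 3.58.1, R 4.3.3) on log2 values with a pseudocount of 1, two-sided, with a trend of the prior variance on the mean, 2 residual and 5.36 prior degrees of freedom. It covered the 21123 loci that reached 1 FPKM in 2 or more of the 4 libraries, with Benjamini-Hochberg adjustment over all of them. The code was tested on simulated data drawn from the fitted variance model with independent noise, so shifts of whole libraries were not tested. An exact permutation of 2 against 2 libraries cannot go below p = 0.333.

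The members and lists were chosen with earlier results of these data known. Named are all members, every listed locus and neighbour past the threshold, the most abundant locus of a list with no call, and the 2 nearest loci with a symbol per member. PDS, cox5b, cox6b, sdhA, cox15, cox2, cox3, LOC_Os04g57310, LOC_Os04g51140, LOC_Os06g05080 and LOC_Os07g42910 were added after their values were seen. Names come from the files or from the gene table of the assembly ASM3414082v1 (same chromosome, span within 10%), which holds AOX1a, CC-1, PDS and Lsi2. The gene next to AOX1a in that table has a span of 1582 bp at a gap of 1596 bp, against 1580 bp and 1596 bp for AOX1b in the files. The names AOX1b, AOX1c and PTOX rest on general knowledge. Alternatives were other scalings, pseudocounts, filters, thresholds and priors, the replicate number as a block, and each library left out. No promoter, protein or transcript sequence was used here, so the planned sequence searches were not run.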

Additional observations from a re-analysis of the deposited data

How the results depend on the processing

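With 893 loci called as reported, the count was 480 with quantile normalization, 449 with median centring, 2 with no filter on low values and 186 at an adjusted p under 0.01, and between 0 and 1300 with a library left out. The limma count was 0 without CysNO 1 (2323 at an unadjusted p under 0.05), 1 without CysNO 2, 661 without control 1 and 1300 without control 2. AOX1a passed with both scalings and lost its call with no filter (log2 fold change 2.54; limma, adjusted p = 0.102). With a library left out its log2 fold change ran from 2.16 to 2.92. AOX1b lost its call with quantile normalization (1.86), median centring (1.99), no filter (1.99) and an adjusted p under 0.01 (1.99), and ran from 1.48 to 2.50 with a library left out. AOX1c ran from -0.59 to 0.39 and PTOX from 0.15 to 0.54 with a library left out, and neither passed under the alternatives run on them, which leave out the crossed pairing. AOX1c has no value with the filter of 5 FPKM. The pathway list had 3 calls as reported, 0 with no filter, 2 with the replicate block and 0 to 4 with a library left out. With no filter the neighbours LOC_Os04g51130 and LOC_Os02g47230 lost their calls too (limma, adjusted p = 0.129 and 0.0786). With a library left out LOC_Os03g08570 (PDS) ran from -0.62 to 0.086 and LOC_Os03g27290 (cox6b) from -0.027 to 0.48. The cause of these shifts was not tested. With the replicate number as a block, 55 loci were called, and AOX1a (2.54; adjusted p = 0.0727) and AOX1b (1.99; adjusted p = 0.108) did not pass, nor did LOC_Os07g37730 (adjusted p = 0.0678) and LOC_Os04g51130 (adjusted p = 0.107). The labels do not say that a number pairs libraries, so the block is given here once. Deviations of same-numbered libraries from their group means had a weak negative correlation (r = -0.186 across 21123 loci, which are not independent). The crossed pairing, added after the data were seen, gave 2831 calls in all and 5 in the pathway list. Its prior degrees of freedom were infinite, so loci of like level shared a variance. Both block fits also have fewer residual degrees of freedom than the reported fit, so their counts cannot be weighed against each other. FPKM without read counts leave the precision of low values, such as those of LOC_Os02g21300 in control, unknown.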
